A study of Rattus norvegicus with 28 samples.

Results

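The kidneys of female rats fed Roundup-sprayed NK603 maize were compared with those of female rats fed control maize. Every array labelled GMO+R, called NK603+R here, was set against every array labelled control, which gave 19 of the 28 arrays of the series, 9 against 10. NK603 is a maize modified to tolerate the glyphosate herbicide Roundup, and in NK603+R the crop had been treated with the herbicide during cultivation. The control maize was the nearest isogenic line without the modification. Maize made up 33% of the chow in all groups, and all animals were Sprague-Dawley rats, with 1 array per animal. The 9 remaining arrays came from rats fed the unsprayed modified maize (NK603) and are used here only beside the members of the main comparison. The sprayed diet therefore differs from control in both the modification and the herbicide treatment, and this comparison cannot tell them apart. Some animals lived to the planned end of the feeding trial and others were put down sooner on welfare grounds, with a mean age at death of 685 ± 69.7 days (SD, n = 9) in NK603+R and 701 ± 62.4 days (SD, n = 10) in control. The difference of -15.9 days did not pass a two-sided exact permutation test (p = 0.606). NK603 animals died at 618 ± 148 days (SD, n = 9), with the youngest at 393, 421 and 465 days. The paper reports mammary tumours as the main cause of death, with more tumour-bearing rats in NK603+R than in control.

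The kidney filters blood in the glomerulus, recovers most of the filtrate in the proximal tubule, and adjusts salt, acid and water in the distal tubule and collecting duct. Proximal tubule cells also excrete drugs and organic anions, and injured tubule cells are known to switch on a set of marker genes, of which Havcr1 (Kim-1) is the best known. Immediate early genes, a further group described below, are transcription factors and signalling regulators that cells induce rapidly after a stimulus.

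All values are log2 units of the deposited expression table, and a difference is the NK603+R mean minus the control mean unless another is named. The tissue label held against its markers. The proximal tubule phosphate transporter Slc34a1 ran from 11.1 to 12.3 in control and from 11.8 to 12.3 in NK603+R, and the thick limb salt transporter Slc12a1 from 11.8 to 12.4 and from 11.9 to 12.5, within a table that spans 1.3 to 14. In the main comparison 2 arrays stood apart. Control animal 10 had a mean level of 9.56 over 14 hepatocyte genes, against at most 6.11 in the other control animals and 6.35 in NK603+R. NK603+R animal 1 had the lowest mean level of its group over the distal tubule list (7.33, next 8.42) and the podocyte list (6.85, next 7.64). Many results are therefore also given without these 2 arrays.

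No transcript cluster, the array's unit for a gene, passed the test between NK603+R and control. Of 36685 clusters, limma called 0 (0%) with the threshold of 0.05 on the Benjamini-Hochberg adjusted p, whose smallest value was 0.319. An unadjusted p under 0.05 was found for 2299 (6.27%), of which 1083 were higher (2.95%) and 1216 lower (3.31%), where 1834 would be expected without any difference. The plain equal-variance test called 0 as well, with 2337 at an unadjusted p under 0.05. The looser selection of the study's methods, which asks for a fold change over 1.1 and an unadjusted p under 0.01, held 513 clusters (1.4%), 207 higher (0.564%) and 306 lower (0.834%). The p alone also gave 513, so the fold change removed none, and 367 would be expected at that p without any difference. Centring each array on its median changed that split from 40.4% to 51.8% higher. The groups did not overlap at 2 clusters (0.00545%), both without a gene name.

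The number of arrays limits the precision. The 95% interval of a difference had a median half-width of 0.249, and for 35930 clusters (97.9%) the whole interval lay within 1 log2 unit of 0. Mean differences over 1 log2 unit occurred at 21 clusters. Genes are named below by size of difference or as members of a list, and are not changes that passed the test.

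**Figure D1:**
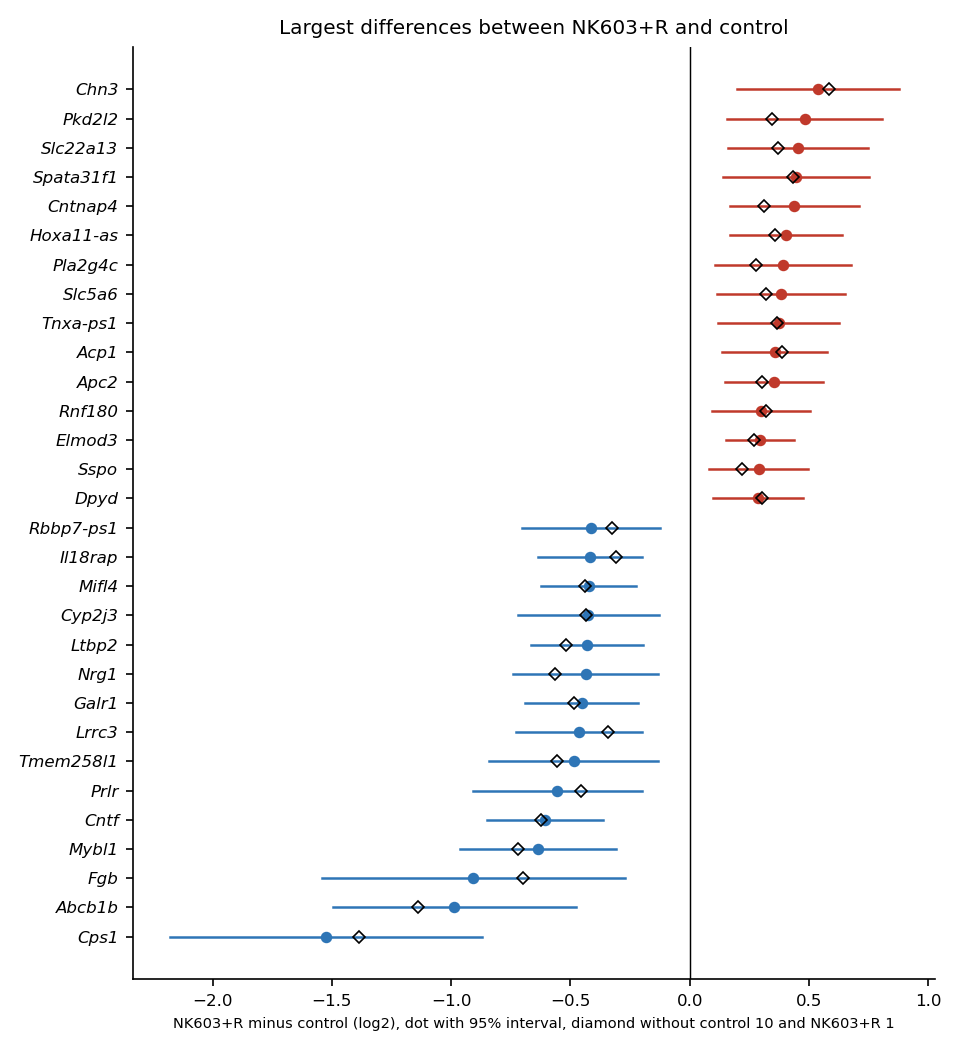
Difference between NK603+R and control (log2, x axis) for the 15 largest named genes in each direction, with dots and 95% intervals from limma. Open diamonds give the difference without control animal 10 and NK603+R animal 1, and all 30 keep their side of 0, with Cps1 at -1.53 and at -1.39 without both.

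Cps1, the mitochondrial enzyme through which ammonia enters the urea cycle, differed most among the named genes. It ran from 5.27 to 6.87 in NK603+R, with a median of 6.0, and from 6.63 to 9.58 in control, with a median of 7.69. Thus 7 of 9 NK603+R animals lay below every control animal, and 8 of 10 control animals lay above every NK603+R animal, with an overlap between 6.63 and 6.87. The means were 6.14 ± 0.50 (SD, n = 9) and 7.67 ± 0.90 (SD, n = 10), a difference of -1.53 (SE 0.31, 95% interval -2.18 to -0.87), or 2.88-fold lower, not called by limma (adjusted p = 0.394). Cps1 is abundant in liver, and the control value of 9.58 came from animal 10, the animal with the high hepatocyte genes. Without that animal the difference was -1.31 (limma adjusted p = 0.36), and without NK603+R animal 1 as well it was -1.39. In animals of at least 700 days it was -1.67. The difference did not extend to the rest of its pathway list. Of 16 measured genes of the urea cycle, arginine and ammonia, 11 were higher and 5 lower (50.6% and 49.4% of all clusters), the median difference was 0.036, and Cps1 alone reached an unadjusted p under 0.05. The mitochondrial aspartate carrier Slc25a13 differed by 0.10 (SE 0.07) and glutamate dehydrogenase Glud1 by 0.07 (SE 0.06).

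Abcb1b, one of the rodent P-glycoproteins, which pump drugs out of cells, lay lower in every NK603+R animal than the control mean. Its values ran from 6.99 to 8.62 in NK603+R (median 7.78) and from 7.83 to 9.50 in control (median 8.80), and 5 of 9 animals lay below all controls. The difference was -0.99 (SE 0.24), or 1.98-fold lower (limma adjusted p = 0.519), and without the 2 arrays it was -1.14. Its close relative Abcb1a differed by -0.18 (SE 0.12), and probes of near-identical genes may share signal. Among 18 drug and organic ion transporters 11 were higher and 7 lower (50.6% and 49.4% of all clusters), with a median of 0.023. Only Slc22a13, a urate and nicotinate transporter (0.45, SE 0.14), and the bile acid and conjugate pump Abcc3 (0.18, SE 0.08) reached an unadjusted p under 0.05 on the higher side. That level was reached on the higher side by 2.95% of all clusters. Slc22a13 ran from 8.89 to 10.0 in NK603+R and from 8.53 to 9.49 in control, with 4 of 9 animals above all controls. Its highest value belonged to animal 1, and without the 2 arrays the difference was 0.37.

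Cntf, ciliary neurotrophic factor, a cytokine of the interleukin 6 family, had the smallest adjusted p of the named genes, shared with 3 unnamed clusters and the olfactory receptor gene Or51q1d, whose family was left out of the naming (-0.54, SE 0.10). It ran from 7.24 to 7.81 in NK603+R (median 7.41) and from 7.58 to 8.69 in control (median 7.97). All 9 NK603+R animals lay below the control mean and 7 of 9 below every control animal. The difference was -0.61 (SE 0.12, 95% interval -0.85 to -0.36, limma adjusted p = 0.319) and -0.62 without the 2 arrays. The related cytokine Lif differed by -0.32 (SE 0.14), with all 9 animals below the control mean (1.07% of all clusters). The receptor subunits Lifr and Osmr differed by -0.12 (SE 0.08) and -0.14 (SE 0.10). Of 16 genes of this family and its signalling, 11 were lower, against 49.4% of all clusters.

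The other named genes on the lower side had varied roles. The transcription factor Mybl1 ran from 5.04 to 6.12 against 5.92 to 6.99 in control and differed by -0.64 (SE 0.16). The prolactin receptor Prlr spanned only 5.47 to 6.0 in NK603+R but 5.41 to 7.0 in control, so that 7 of 10 control animals lay above all NK603+R animals while none of the latter lay below all controls (-0.55, SE 0.17). Stat5a, which transmits prolactin and growth hormone signals, differed the other way (0.22, SE 0.11). The galanin receptor Galr1 (-0.45), the ErbB ligand Nrg1 (-0.44), the latent TGF-beta binding protein Ltbp2 (-0.43), the arachidonic acid epoxygenase Cyp2j3 (-0.43) and the interleukin 18 receptor subunit Il18rap (-0.42) followed. Il18rap had 9 of 10 control animals above every NK603+R animal, the most of the 15 genes. Tmem258l1 (-0.49), Lrrc3 (-0.46), Mifl4 (-0.42) and the pseudogene Rbbp7-ps1 (-0.41), whose probes may also read Rbbp7, complete the list. Without the 2 arrays Prlr (-0.46), Lrrc3 (-0.34), Il18rap (-0.31) and Rbbp7-ps1 (-0.33) differed less. Mybl1, Galr1, Nrg1, Ltbp2, Cyp2j3, Tmem258l1 and Mifl4 then differed more. Of the 15 genes, 12 lay below the control mean in all 9 animals, which happened at 1.07% of all clusters, and limma adjusted p ran from 0.319 to 0.699. The genes were picked by unadjusted p and size. Neither their direction nor their count of animals below the control mean is independent of that choice.

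Fibrinogen, the precursor of the clot protein fibrin, is made of 3 chains encoded by Fga, Fgb and Fgg, and all of them stood lower. Fgb ran from 5.93 to 7.45 in NK603+R (median 6.38) and from 6.69 to 9.59 in control (median 7.18). Its difference was -0.91 (SE 0.31, limma adjusted p = 0.693). Fgg differed by -1.01 (SE 0.40) and Fga by -0.45 (SE 0.21). For each of the 3 genes all 9 NK603+R animals lay below the control mean (1.07% of all clusters). That mean includes control animal 10, and the count was not repeated without it. Liver makes most fibrinogen, and control animal 10 held the highest control value of Fgb (9.59) and Fgg (9.68). Without that animal the differences were -0.67, -0.70 and -0.32 for Fgb, Fgg and Fga. The endothelial anticoagulant receptor Thbd differed by -0.21 (SE 0.10). In the whole list of 19 coagulation and complement genes 16 were lower with all arrays, but 10 without control animal 10 (50.1% of all clusters were then lower), and the median difference moved from -0.125 to -0.026.

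**Figure D2:**
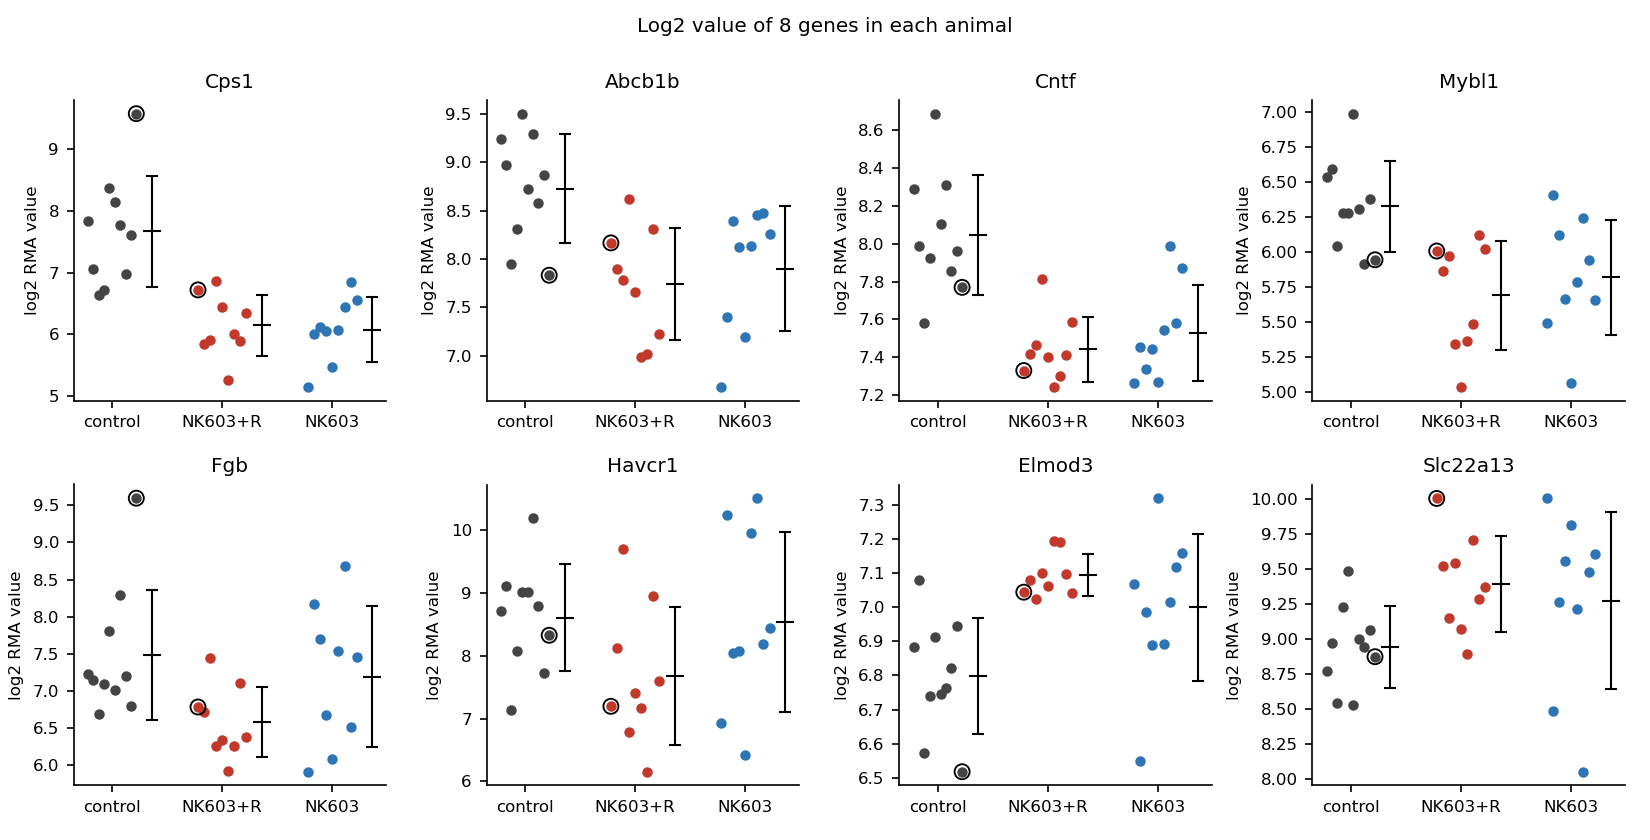
Log2 value of 8 genes in each animal (y axis) for control (n = 10), NK603+R (n = 9) and NK603 (n = 9), with the group mean and SD beside the points. Circles mark control animal 10 and NK603+R animal 1. Cps1 values of NK603+R sit between 5.27 and 6.87 and those of control between 6.63 and 9.58, and the Elmod3 values of NK603+R lie within a narrow range of 7.02 to 7.19.

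The 15 genes on the higher side had smaller differences, from 0.29 to 0.54. Chn3 (0.54, SE 0.16) had its highest value, 6.61, in NK603+R animal 9, where the next was 5.74. Pkd2l2, of the polycystin channel family (0.48, SE 0.16), lay above the control mean in all 9 animals. So did Cntnap4 (0.44), the pseudogene Tnxa-ps1 (0.37), Apc2 (0.35) and Elmod3 (0.29), and 1.05% of all clusters. The genes were picked by unadjusted p and size, so this count of animals is not independent of that choice. Elmod3, a regulator of small GTPases, was the most uniform, with 7.02 to 7.19 in NK603+R against 6.52 to 7.08 in control and a limma adjusted p of 0.504, the smallest of the 15. The multivitamin transporter Slc5a6 (0.38, SE 0.13) had 6 of 9 animals above every control animal, as had Rnf180 (0.30, SE 0.10). Spata31f1 (0.44), Hoxa11-as (0.41), the phospholipase Pla2g4c (0.39), the tyrosine phosphatase Acp1 (0.36), Sspo (0.29) and the pyrimidine-degrading enzyme Dpyd (0.29) make up the rest. NK603+R animal 1 held the highest NK603+R value of Pkd2l2, Cntnap4, Slc5a6, Hoxa11-as, Pla2g4c, Tnxa-ps1 and Sspo. Without the 2 arrays Pkd2l2 differed by 0.34, Cntnap4 by 0.31 and Pla2g4c by 0.28. Chn3 (0.58), Acp1 (0.39), Rnf180 (0.32) and Dpyd (0.30) then differed more, and the other genes on the higher side less. Among the 30 named genes the groups overlapped in every case.

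Of 25 markers of tubular injury none stood higher at an unadjusted p under 0.05, and 3 stood lower, a level reached on the lower side by 3.31% of all clusters. Havcr1 (Kim-1), which injured proximal tubule cells expose on their surface, ran from 6.15 to 9.70 in NK603+R (median 7.42) and from 7.13 to 10.2 in control (median 8.76). The spread within groups was large, since NK603+R animals 3 and 8 had 9.70 and 8.95 while 2 of 9 lay below all controls. The difference was -0.93 (SE 0.41, 95% interval -1.79 to -0.07, limma adjusted p = 0.769). Tff3, a secreted trefoil peptide, ran from 7.26 to 9.57 against 7.94 to 9.40, with 5 of 9 animals below all controls and animal 4 above all of them (-0.72, SE 0.26). Spp1, osteopontin, differed by -0.22 (SE 0.09). Of the whole list 10 of 25 members were higher (50.6% of all clusters), with a median of -0.024. Without the 2 arrays 15 were higher (49.3% of all clusters were then higher). The list also held Umod, Egf and Calb1, which are counted among the thick limb or distal tubule genes as well. Its counts are therefore not a measure of injury. Among 27 fibrosis and matrix genes 23 were lower with all arrays, led by Ltbp2 and the collagen Col5a2 (-0.20, SE 0.09), but 14 without the 2 arrays (50.7% of all clusters were then lower), where the median was -0.001 in place of -0.144.

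Immediate early genes stood lower almost throughout, and this held without the 2 arrays. Of 29 measured members 27 were lower, against 49.4% of all clusters, with a median difference of -0.20, and 26 were lower without the 2 arrays, with a median of -0.21. The list was not tested, because it was chosen with earlier results of these data known, and its members are induced together, so they do not count as independent genes. No member was called. At an unadjusted p under 0.05, 7 members were lower (3.31% of all clusters) and 0 higher (2.95%). These were Ccn1, a matrix-associated growth regulator (-0.38, SE 0.11, limma adjusted p = 0.607), the stress-induced factor Atf3 (-0.55, SE 0.20), Egr3 (-0.31), Egr2 (-0.32), Fos (-0.50, SE 0.20), Egr1 (-0.29) and Klf6 (-0.31), all transcription factors except Ccn1. The exceptions to the direction were Ier5 (0.12, SE 0.10) and Egr4 (0.07, SE 0.10).

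The animals nonetheless overlapped. Fos ran from 7.38 to 8.97 in NK603+R (median 8.12) and from 8.02 to 9.23 in control (median 8.75), and Atf3 from 6.57 to 8.14 (median 7.62) and from 7.40 to 8.64 (median 7.97). NK603+R animal 8 was high for both, with 8.97 and 8.14. The mean level over the list ran from 7.34 to 7.87 in NK603+R and from 7.54 to 8.04 in control. With age at death as a covariate 27 members were lower and 2 higher (49.5% and 50.5% of all clusters), with a median of -0.23. The list was also low in the unsprayed NK603 animals, at 7.57 ± 0.24 (SD, n = 9) against 7.58 ± 0.15 (SD, n = 9) in NK603+R and 7.80 ± 0.18 (SD, n = 10) in control.

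Several of these genes carry a serum response element core, the CArG box, near their start. RefSeq promoter windows of 300 bases (assembly GRCr8) matched 21 of the 29 members, and 5 of the 21 (23.8%) held a CArG box on either strand, compared with 1.64% of 27457 promoters. The cyclic AMP response element TGACGTCA was in 4 of 21 (19%), compared with 1.91%. The windows of Egr2 and Klf6, both among the 7 members above, are shown because each holds such a box, in capitals. Egr2 lies at chr20:21054392-21054691 and Klf6 at chr17:69458429-69458728, both on the minus strand.
Egr2: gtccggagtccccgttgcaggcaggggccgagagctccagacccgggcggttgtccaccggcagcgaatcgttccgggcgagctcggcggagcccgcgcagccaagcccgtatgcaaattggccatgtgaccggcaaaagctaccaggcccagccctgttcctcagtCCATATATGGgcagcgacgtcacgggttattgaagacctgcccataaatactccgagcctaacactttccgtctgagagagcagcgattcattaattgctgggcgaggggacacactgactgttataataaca
Klf6: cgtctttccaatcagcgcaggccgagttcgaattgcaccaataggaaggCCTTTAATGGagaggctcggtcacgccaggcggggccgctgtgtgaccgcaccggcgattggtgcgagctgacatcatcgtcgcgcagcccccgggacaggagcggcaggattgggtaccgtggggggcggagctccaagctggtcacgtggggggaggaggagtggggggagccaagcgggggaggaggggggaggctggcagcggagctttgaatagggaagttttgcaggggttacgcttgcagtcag

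**Figure D3:**
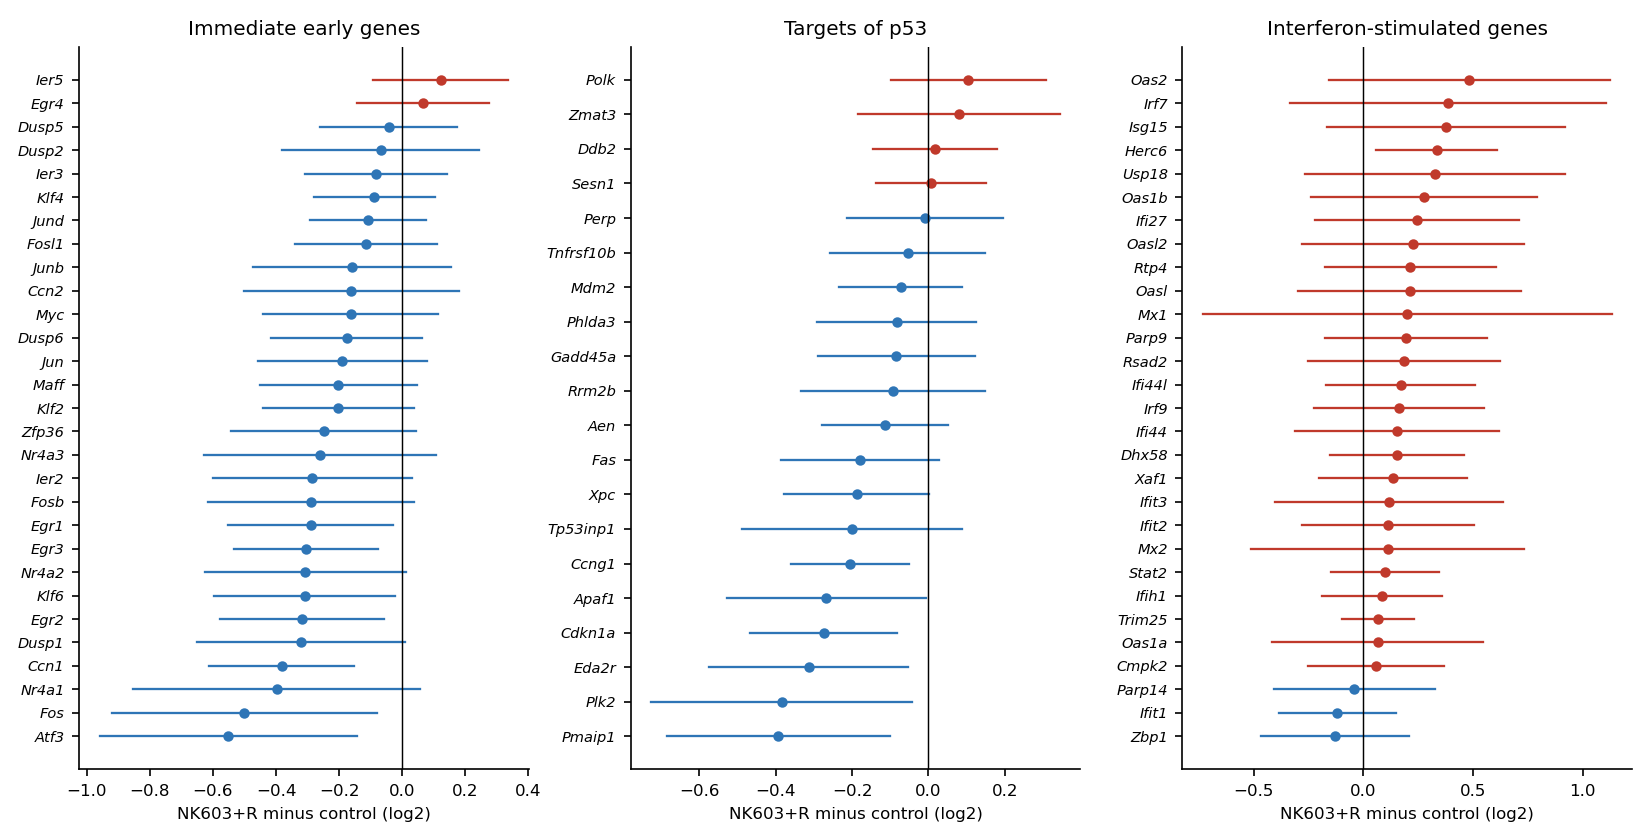
Difference between NK603+R and control (log2, x axis) with 95% intervals for each measured member of 3 gene lists. Immediate early genes lie below 0 for 27 of 29 members and p53 targets for 16 of 20, while interferon-stimulated genes lie above 0 for 26 of 29, most with intervals that include 0.

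Targets of p53, the transcription factor that halts the cell cycle or starts cell death after DNA damage, also leaned lower. Of 20 measured members 16 were lower, against 49.4% of all clusters, with a median of -0.103. At an unadjusted p under 0.05, 6 were lower (3.31% of all clusters). The cyclin-dependent kinase inhibitor Cdkn1a (p21) ran from 6.78 to 7.33 in NK603+R (median 7.15) and from 7.11 to 7.65 in control (median 7.41). All 9 animals lay below the control mean, 4 of 9 below all controls, and the difference was -0.27 (SE 0.09, limma adjusted p = 0.693). Ccng1, a cyclin induced by p53, differed by -0.20 (SE 0.08), also with all 9 animals below the control mean (1.07% of all clusters). These members are named for their small unadjusted p, so this count of animals is not independent of that choice. The pro-death genes Pmaip1 (-0.39, SE 0.14) and Apaf1 (-0.27, SE 0.13), the receptor Eda2r (-0.31, SE 0.13) and the kinase Plk2 (-0.38, SE 0.16) were the others. Without the 2 arrays 16 of 20 were lower (50.7% of all clusters were then lower), with a median of -0.125. The list was also low in the unsprayed NK603 animals, at 7.05 ± 0.18 (SD, n = 9). Its level was 7.04 ± 0.12 (SD, n = 9) in NK603+R and 7.17 ± 0.09 (SD, n = 10) in control. Cell cycle genes stood lower for 22 of 28 members (median -0.109), against 49.4% of all clusters. Without the 2 arrays 20 were lower (median -0.075), against 50.7%. With all arrays, Mybl1, Cenpf (-0.27, SE 0.10) and Cdc20 (-0.22, SE 0.09) were lower at an unadjusted p under 0.05 (3.31% of all clusters).

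Interferon-stimulated genes, which cells switch on in antiviral defence, stood higher for 26 of 29 members, against 50.6% of all clusters, with a median of 0.16. Like the immediate early genes, the members are induced together, so they do not count as independent genes. Higher at an unadjusted p under 0.05 were 2.95% of all clusters and, of these members, only Herc6, a ubiquitin ligase of the pathway. It ran from 8.44 to 9.14 in NK603+R (median 8.69) and from 8.0 to 9.20 in control (median 8.26). All 9 animals lay above the control mean, as at 1.05% of all clusters, and Herc6 differed by 0.33 (SE 0.13, limma adjusted p = 0.728). The antiviral enzyme Oas2 differed by 0.48 (SE 0.31), the regulator Irf7 by 0.39 (SE 0.35), the ubiquitin-like Isg15 by 0.38 (SE 0.26), Usp18 by 0.33 (SE 0.29) and Mx1 by 0.20 (SE 0.45). Ifit1 (-0.12), Zbp1 (-0.13) and Parp14 (-0.04) were the 3 members on the other side.

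A few NK603+R animals and 1 control animal stood high over this list. NK603+R animals 5, 6 and 9 stood at 7.34, 7.64 and 7.08 over the list, and control animal 3 at 7.46, while the other control animals ran from 6.36 to 6.99. NK603+R animal 1 was the lowest of all 19, at 5.99. Irf7 was high in the same animals, with 8.93, 9.33 and 8.15 in NK603+R animals 5, 6 and 9, 8.97 in control animal 3 and 6.45 in NK603+R animal 1. Without the 2 arrays 27 of 29 members were higher, with a median of 0.30.

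The interferon-stimulated response element, searched on both strands as GAAA repeated after a gap of any 2 bases, was in 12 of the 20 members with a RefSeq promoter window (60%), compared with 3.77% of all promoters. The windows of Rsad2 (chr6:48788071-48788370), an antiviral enzyme that differed by 0.19 (SE 0.21), and Irf7 (chr1:205799974-205800273), both on the minus strand, are shown with the element in capitals. In both it stands in the reverse orientation.
Rsad2: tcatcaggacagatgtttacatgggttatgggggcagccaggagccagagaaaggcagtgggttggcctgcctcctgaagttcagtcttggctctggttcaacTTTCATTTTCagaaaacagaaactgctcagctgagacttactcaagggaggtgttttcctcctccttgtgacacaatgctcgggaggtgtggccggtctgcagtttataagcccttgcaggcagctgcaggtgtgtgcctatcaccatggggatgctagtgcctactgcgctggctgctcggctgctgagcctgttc
Irf7: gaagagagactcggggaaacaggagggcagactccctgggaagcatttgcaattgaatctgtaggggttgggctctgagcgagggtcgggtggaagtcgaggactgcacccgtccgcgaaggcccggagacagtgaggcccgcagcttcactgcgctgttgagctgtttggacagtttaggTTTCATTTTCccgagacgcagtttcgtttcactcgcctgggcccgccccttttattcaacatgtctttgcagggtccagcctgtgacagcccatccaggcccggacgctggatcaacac

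**Figure D4:**
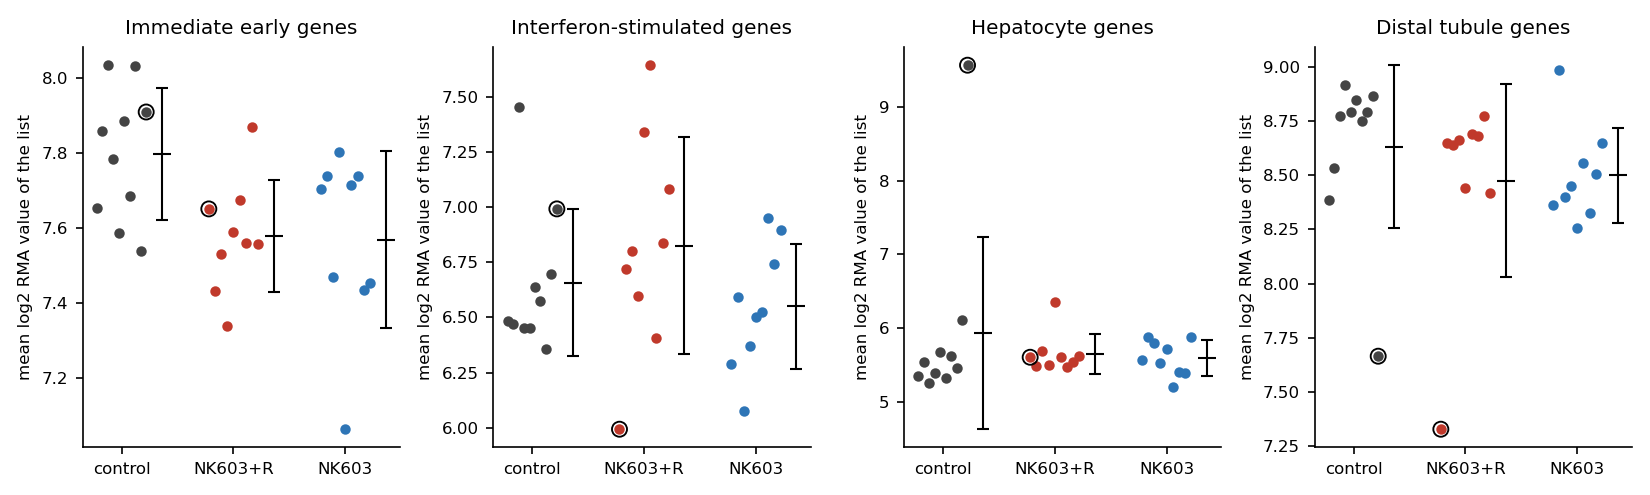
Mean log2 level (y axis) over 4 gene lists in each animal of control, NK603+R and NK603, with group mean and SD. Circles mark control animal 10, at 9.56 for the hepatocyte list, and NK603+R animal 1, at 5.99 for the interferon list and 7.33 for the distal tubule list.

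The other pathway lists held few members apart from 0. In the circadian clock list 8 of 16 were higher (50.6% of all clusters). The repressor Cry1 differed by -0.36 (SE 0.12) and Nfil3 by -0.46 (SE 0.20), and NK603+R animals 2 and 4 had both the lowest Nfil3 (5.71 and 4.95) and the highest Nr1d1 (9.07 and 9.82) of their group, while control Nr1d1 spanned only 7.76 to 8.24. The mean difference of Nr1d1, a repressor that peaks by day in rodents, was 0.38 (SE 0.20). By the paper's account the animals were all killed at a fixed time of day, and the cause of these values was not tested. Among 19 targets of the oxidant sensor Nrf2, Srxn1 alone reached an unadjusted p under 0.05, on the lower side (3.31% of all clusters). It lay below the control mean in all 9 animals (-0.21, SE 0.07), as did 1.07% of all clusters. Of the 19 members 8 were higher (50.6% of all clusters). Of 21 drug-metabolising enzymes and their regulators 9 were higher (50.6% of all clusters). Only the dioxin receptor Ahr (0.24, SE 0.10) reached an unadjusted p under 0.05, on the higher side (2.95% of all clusters). Genes of dipeptide handling and branched-chain amino acid breakdown stood higher for 18 of 24 (50.6% of all clusters), with none at that level. Among them the carnosinase Cndp1 differed most clearly (0.24, SE 0.12).

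Cell type lists moved mainly with the 2 arrays that stood apart. In bulk tissue, fewer cells of a type and less RNA per cell cannot be told apart. All 14 hepatocyte genes were lower with all arrays, and 10 were higher without control animal 10 (49.9% of all clusters were then higher), with the median going from -0.254 to 0.098. All 8 intercalated cell genes were higher with all arrays and 2 without control animal 10. Endothelial genes were lower for 8 of 9 with all arrays and for 5 without both, and adipocyte genes for 10 of 12 and for 6. T and natural killer cell genes were lower for 14 of 15 (49.4% of all clusters), and 13 were still lower without both (50.7%). Cd8b (-0.32, SE 0.13) and Zap70 (-0.18, SE 0.09) were lower at an unadjusted p under 0.05 (3.31% of all clusters). The genes were dim, with a mean list level of 5.32 in control and 5.19 in NK603+R. Array medians of the series ran from 5.43 to 5.63. NK603+R animal 7 was the lowest for this list, at 4.80. Of 7 B and plasma cell genes 5 were lower (49.4% of all clusters), with a median of -0.144. The B cell receptor subunit Cd79b went against its list (0.23, SE 0.09). The 9 adrenal cortex genes were even, with 4 higher, 5 lower and a median of -0.022. Among them the enzyme gene Cyp11b3 differed by -0.42 (SE 0.13), with 6 of 9 animals below all controls. Urothelial genes were even, with 7 of 11 higher and a median of 0.004.

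**Figure D5:**
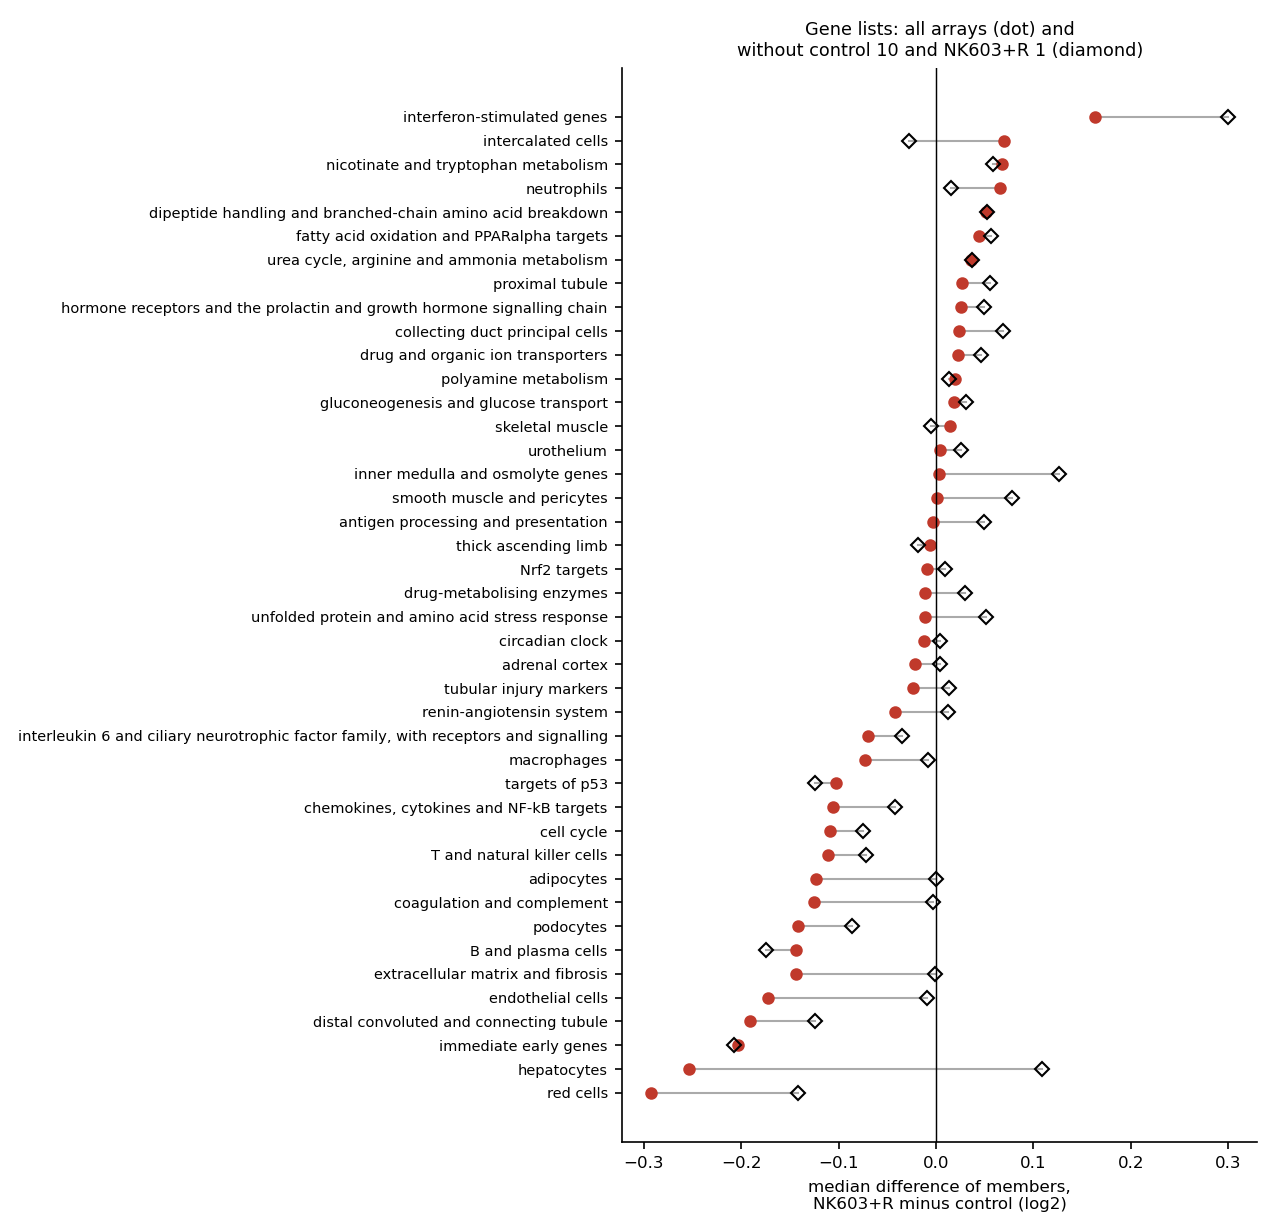
Median difference between NK603+R and control over the members of each of the 42 gene lists (log2, x axis), with all arrays (dots) and without control animal 10 and NK603+R animal 1 (diamonds). Immediate early genes stay near -0.20, while the hepatocyte median goes from -0.254 to 0.109 and the fibrosis median from -0.144 to -0.001.

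The animals fed sprayed maize were also set against those fed the unsprayed modified maize, a comparison of the same modified maize with and without herbicide treatment of the crop. Limma called 0 of 36685 clusters, the smallest adjusted p being 0.0745. An unadjusted p under 0.05 was found for 1508 (4.11%), and the looser selection held 207 (0.564%). NK603 animals 3 and 2 stood furthest apart of all arrays, with median correlations to the others of 0.881 and 0.938, against 0.957 to 0.981 in the other 26. Without both the looser selection held 310, and limma again called 0. NK603+R animals were on average 66.7 days older than NK603 animals at death (two-sided exact permutation test, p = 0.245). Both diets share the same control animals, so the NK603 values are only set beside those of NK603+R. Cps1 was 6.08 ± 0.53 (SD, n = 9) in NK603, 0.07 below NK603+R (SE 0.23, 95% interval of the difference -0.41 to 0.54, limma adjusted p = 0.981). Abcb1b was 7.90 ± 0.65 (SD, n = 9) in NK603 and Cntf 7.53 ± 0.25 (SD, n = 9), 0.16 and 0.09 above NK603+R. Fgb was 7.19 ± 0.95 (SD, n = 9), between NK603+R and control. Of the 30 named genes none was called between the sprayed and unsprayed diets, with limma adjusted p from 0.944 to 0.999. Herc6 differed by 0.48 (SE 0.13) and Oas2 by 0.85 (SE 0.30) between sprayed and unsprayed, and limma called neither (adjusted p = 0.944 for each). Of 29 interferon-stimulated genes 26 were higher in the sprayed group, against 47.9% of all clusters, with a median of 0.30. NK603 animal 3 had the lowest level of its group over this list, at 6.08. Without it 23 of 29 were higher, against 49.4% of all clusters, with a median of 0.19. Without NK603 animals 2 and 3 it was 24 of 29, against 52.2%, with a median of 0.18. The mean level over the list was 6.82 in NK603+R, 6.66 in control and 6.55 in NK603, so NK603 lay below control. Other lists were as one-sided between sprayed and unsprayed with all arrays. Higher in the sprayed group were 0 of 13 macrophage genes, 0 of 15 T and natural killer cell genes and 10 of 11 urothelial genes.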

How the data were processed

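Transverse slices of frozen kidney were hybridised to Affymetrix Rat Gene 2.0 ST arrays, 1 per animal. The authors deposited log2 expression values. They had normalized all arrays in a single run with Affymetrix Expression Console by RMA sketch at the level of genes, a method of background correction, quantile normalization and median polish over probes. Quantile normalization would hide any shift common to the whole transcriptome. Neither the software version nor the genome build and scan dates were found in the labels or methods. Arrays carry no count of reads, and precision rests on the number of animals.

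Groups, replicate numbers (animal numbers in the text) and ages came from the sample labels. Of 36685 clusters, 18511 had 1 gene symbol in the platform table (18166 genes), 575 several and 17599 none, and only the first were named. RefSeq's gene table (GRCr8) held 18394 of the one-symbol clusters.

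Each pair of groups was fitted with limma 3.58.1 (R 4.3.3), lmFit and eBayes, without covariates and two-sided, with Benjamini-Hochberg adjustment over all clusters and a call at an adjusted p under 0.05. P-values in the text marked as adjusted are from these fits, and the spread is that between animals. The tests were tried on simulated data. The 42 lists (23 of pathways, 19 of cell types) had 686 entries, of which 618 were matched, with the brightest cluster standing for a gene. Their members are counted, with no test. The members and lists were chosen with earlier results of these data known.

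Named genes were the called ones (none), then the 15 largest differences in each direction among one-symbol clusters at the looser selection (unadjusted p under 0.01, fold change over 1.1) with a mean of at least 5, without provisional symbols, olfactory, vomeronasal and taste receptors, and RT1, immunoglobulin and small RNA genes. Up to 6 members of smallest p were named per list, and any member of the immediate early, interferon, p53, clock and urea cycle lists. Counts of animals past the control mean are not independent of these choices. Marker genes given for the tissue check carry no comparison. Replicate numbers did not pair the animals (correlations of same-numbered deviations from -0.151 to 0.039). Alternatives comprised age, animals of at least 700 days, arrays left out, array weights, centring, repeated quantile normalization, a filter on dim clusters, other variance models, the plain test, all groups in 1 fit and the replicate block. Leaving out NK603 animals 2 and 3, and the alternatives for the looser selection between NK603+R and NK603, were chosen after seeing the data.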

Additional observations from a re-analysis of the deposited data

Results flagged for a closer look

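In groups of 9 or 10 animals, values far from the rest of their group by Dixon's criterion at the 95% level were sought in 254 groups of values, of genes, list levels and ages, and 26 were found. Chance flags about 1 in 20 groups. Several fell on the same arrays.

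Control animal 10 was far above the other control animals for the mean level of hepatocyte genes (9.56, next 6.11), coagulation and complement genes (8.75, next 7.68), red cell genes (7.31, next 6.22) and endothelial genes (8.60, next 8.22). It was far below them for intercalated cell genes (8.15, next 9.16) and distal tubule genes (7.66, next 8.39). NK603+R animal 1 was far below its group for distal tubule genes (7.33), proximal tubule genes (9.87, next 10.4), podocyte genes (6.85), gluconeogenesis genes (8.75, next 9.29), Ccn1 (8.53, next 9.12) and Ifit3 (4.49, next 5.75). These 2 arrays are the ones left out together above.

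Control animal 3 stood high for Oas2 (7.44, next 6.45) and Usp18 (8.16, next 7.11), low for drug-metabolising enzymes (7.94, next 8.18), and was the youngest control animal, at 540 days (next 646). Single values far from their groups were Chn3 in NK603+R animal 9 (6.61), Tff3 in NK603+R animal 4 (9.57, next 8.36), Hoxa11-as in control animal 6 (5.19, next 5.76) and Abcc3 in control animal 5 (8.39, next 8.11). The list levels that stood apart elsewhere were adipocyte genes in NK603+R animal 9 (7.39, next 6.52), hepatocyte genes in NK603+R animal 5 (6.35, next 5.69), red cell genes in NK603+R animal 6 (6.74, next 5.84), and T and natural killer cell genes (4.80, next 5.14) and nicotinate and tryptophan genes (8.03, next 7.88) in NK603+R animal 7. Principal cell genes were low in control animal 7 (8.72, next 9.13).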

How the results depend on the processing

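Limma called 0 clusters between NK603+R and control with all arrays and under each of 30 alternatives, with the smallest adjusted p between 0.0985 and 0.801. The looser selection, 513 clusters, ran from 452 to 617 when 1 array was left out and was 638 without control animal 10 and NK603+R animal 1 together. It held 233 clusters, 87 higher and 146 lower, when all 3 groups shared 1 fit, which estimates the spread over 28 arrays. With clusters of a mean of at least 5 only, fewer being tested, 136 were higher in place of 207. With the replicate number as a block it held 397 and the smallest adjusted p was 0.801, and the block changed no call. Between NK603+R and NK603 the looser selection held 613 clusters with age at death as a covariate in place of 207, and the cause was not tested. That selection was 273 without NK603 animal 3 and 195 without NK603+R animal 1. Of 84 named genes, 2 changed direction under an alternative. Mx1 ran from -0.013 to 0.54 with 1 array left out, the lowest without NK603+R animal 9. Parp14 ran from -0.10 to 0.10 with 1 array left out, above 0 without NK603+R animal 1, NK603+R animal 7 or control animal 3, and was 0.13 in animals of at least 700 days, 0.13 without both arrays and 0.11 with array weights. With 9 and 10 animals the 95% interval of a difference reached a median of 0.249 to each side, and at the adjusted threshold a difference as large as -1.53, that of Cps1, was not called.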
